A study of Mus musculus with 180 samples.

Results

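Zinc finger genes named Zfp with a number are a large and scattered part of the mouse genome, and here those numbered below 700 were followed through embryonic stem cells (ESCs) and epiblast-like cells (EpiLCs), the state that ESCs enter as they leave naive pluripotency. Members were all genes with such a symbol in the deposited gene list that stood in the ESC or the EpiLC RNA table, leaving out Zfp42, Zfp352, Zfp369, Zfp595, Zfp457 and Zfp459. The rule used names and no measured difference. It gave 226 of the 13004 genes with a symbol in these tables, out of 249 genes with a fitting symbol; 23 stood in no RNA table. Of the 226, 202 stood in both tables, 11 in the ESC table alone and 13 in the EpiLC table alone, and every member in a table passed the filter on low values (213 in ESCs and 215 in EpiLCs).

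The study compared cells of the inbred mouse strains C57BL/6J (B6) and DBA/2J (D2), of their F1 hybrid B6D2F1/J and of BXD strains, inbred recombinants of a B6 by D2 cross that each carry a fixed mosaic of both genomes. RNA-seq covered 3 B6 lines (B41, B44 and B51), 3 D2 lines (D29, D55 and DAC203) and 33 BXD lines as ESCs and as EpiLCs, and 3 F1 lines (F116, F117 and F124) as ESCs. No genotype was changed and no agent compared; strain and state are the groups. ATAC-seq, which reads open chromatin, covered the parental and BXD lines in both states and the F1 lines as ESCs. Only its parental lines were used here. ChIP-seq of TRIM28 covered the 3 lines of each parental strain as ESCs.

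Most proteins of this family carry C2H2 fingers, short loops held by a zinc ion that read DNA bases, in rows whose order sets the sequence bound. Many also carry a KRAB box, which binds TRIM28, a co-repressor that brings the enzyme SETDB1, histone H3 lysine 9 methylation and heterochromatin to the bound site. In ESCs this pathway is known for silencing retroelements and for protecting the DNA methylation of imprinted genes. By a pattern search of the annotated proteins, 221 members had at least 1 C2H2 finger and 80 had a match to a KRAB box. A single pattern can miss boxes that depart from it, so members without a match may still carry one. Members with a matched box had a median of 12 fingers and those without a match 8. The most matched in 1 protein was 37, counted over its whole length and not as 1 row. The 5 with no match were Zfp36, Zfp185, Zfp330, Zfp365 and Zfp503. Chromosome 7 held 61 members, chromosome 17 held 22 and chromosome 13 held 15, and 133 members had another within 1 Mb.

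RNA values are a normalized signal that sums to between 875100 and 1230000 per library; the number of reads behind it is unknown. Reads in regions came to between 16277662 and 24346475 for the ATAC data. For TRIM28 they came to between 5634327 and 6872995, except in D55 of D2, where there were 17092029. Pluripotency was followed by the summed signal of 8 markers, Klf4, Klf2, Esrrb, Tfcp2l1, Nanog, Pou5f1, Sox2 and Tbx3. Pou5f1 and Sox2 are not specific to the naive state, and the sum is unweighted, so it does not measure that state alone. The sum was 4511 to 4740 in B6 ESCs and 4610 to 4779 in D2 ESCs. In EpiLCs it was 816 to 859 in B6 and 1013 to 1140 in D2, with 6 of 8 markers higher in D2 and 1 lower, while 5 EpiLC markers summed to 2033 to 2499 and 1745 to 1845, with 2 higher and 2 lower. In ESCs the 4 measured EpiLC markers summed to 101 to 141 in B6 and 225 to 293 in D2, with 3 higher. Markers of feeder fibroblasts summed to 3262 to 4651 in B6 and 3357 to 3533 in D2 ESCs, with 2 of 10 higher. In EpiLCs they summed to 221 to 306 and 245 to 358, with 3 of 8 higher, and 3 primitive endoderm markers to 2.15 to 2.86 and 13.3 to 57.7, all 3 higher. Of 4 trophectoderm markers in ESCs, which summed to 14.5 to 19.4 in B6 and 5.87 to 9.996 in D2, 1 was higher and 2 lower. Of 4 two-cell-like markers in EpiLCs, at 13.8 to 21.2 and 9.18 to 10.3, 3 were lower. The part of these markers' cells in the differences between strains below was not tested, and in such bulk samples fewer cells of a type and less RNA per cell cannot be told apart.

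Zfp277 had the largest strain difference of all members, in both states. The gene (mm10 chr12:40315046-40445902, minus strand) encodes a protein of 583 residues with 4 matched fingers and no KRAB box, a factor linked to Polycomb repression at the Cdkn2a locus. In ESCs its signal was 56.8, 53.0 and 55.8 in B41, B44 and B51 of B6, and 6.48, 6.66 and 7.22 in D29, D55 and DAC203 of D2, the order kept below. Every D2 line lay far below every B6 line. The difference, D2 minus B6 on the scale log2(signal + 1), was -2.85 (SE 0.09, n = 3 lines per strain, limma adjusted p = 6.97e-08). In EpiLCs the signal was 35.0, 43.5 and 32.9 in B6 and 4.74, 4.48 and 4.98 in D2, again without overlap (-2.72, SE 0.11, limma adjusted p = 4.1e-09). The interaction of strain and state, the EpiLC difference minus the ESC difference, was 0.13 and did not pass the test (limma adjusted p = 0.525).

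**Figure D1:**
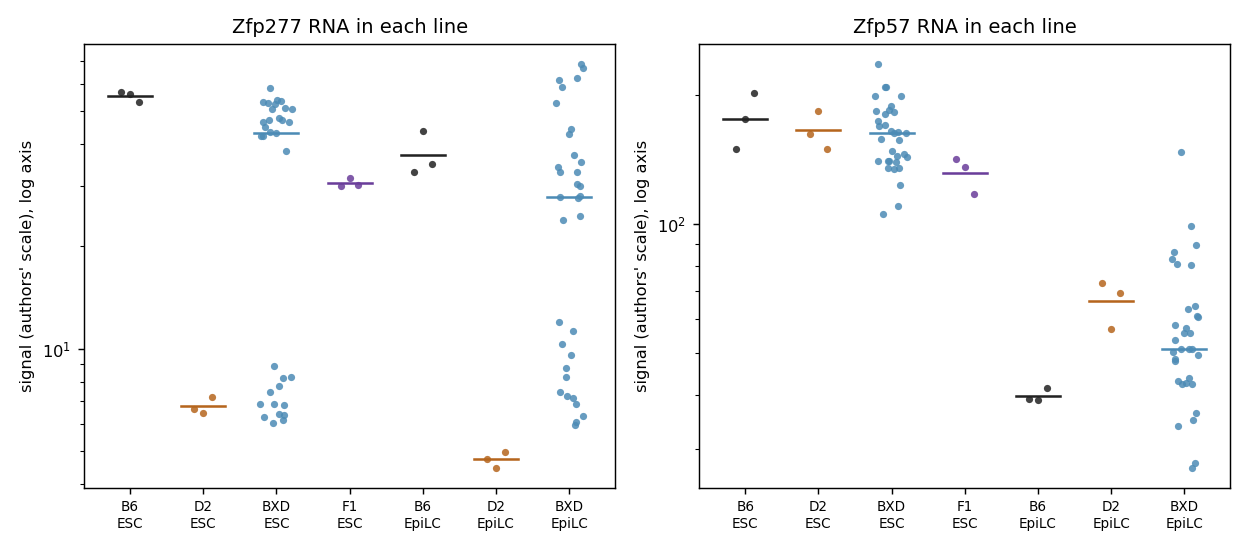
RNA signal of Zfp277 and Zfp57 (log axis, the authors' scale) in each line by group, with bars at the mean (BXD: median). Zfp277 falls into a low set with every D2 line and a high set with every B6 line, with the F1 between, while the parental lines of Zfp57 overlap in ESCs and not in EpiLCs.

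The BXD lines fell into the same low and high sets for Zfp277. In ESCs 13 lines had a signal of 6.05 to 8.91 and 20 lines 38.0 to 58.4, with none between. In EpiLCs 13 lines had 5.96 to 11.99 and 20 had 23.9 to 68.5. The 13 low lines were the same in both states, namely BXD43, BXD55, BXD67, BXD69, BXD74, BXD81, BXD84, BXD86, BXD90, BXD99, BXD124, BXD125 and BXD154. All 33 lines thus lay on the same side of the parental midpoint in both states. The F1 lines had 30, 31.7 and 30.3, between all D2 and all B6 lines. Their mean of 30.7 was near the linear mean of the parents in the same table, 31.1, which comes from 55.3 in B6 and 6.80 in D2. On the log2 scale, where the midpoint lies lower, the F1 exceeded the parental mean by 0.60 (SE 0.07, limma adjusted p = 0.000603).

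Among 4709 other called genes whose parental lines did not overlap in ESCs, those that placed the BXD lines most like Zfp277 were Tmem18 (chr12:30584426-30591215) and Rnaseh1 (chr12:28649602-28659589), each matching 29 of 33 lines. Gm9493 on chromosome 19 matched 27. The first 2 of these lie on the chromosome of Zfp277. Their own strain differences were -0.82 and -0.49, and that of Gm9493 was -3.80. In EpiLCs, among 7086 genes, the most like were Stbd1 on chromosome 5 (29 lines), Zik1 on chromosome 7 (28) and Zbtb14 on chromosome 17 (28), none of them on chromosome 12.

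Within Zfp277, TRIM28 signal was far lower in D2 at 2 regions that flank a stretch of repeats. At chr12:40398774-40402267, in an intron, the B6 lines had 28.1, 27.7 and 23.98 and the D2 lines had 2.82, 3.20 and 2.72. This was -3.14 on log2(signal + 0.1), with SE 0.15 and a limma adjusted p of 8.83e-21. At chr12:40409027-40412839, which touches an exon, the values were 31.1, 30.6 and 24.4 in B6 and 4.75, 5.27 and 4.26 in D2 (-2.56, limma adjusted p = 8.02e-19). B6 and D2 were apart at both regions. A smaller region at chr12:40396183-40397482 was also lower (-1.28, limma adjusted p = 0.000257). The region over the gene's start was not (0.15, limma adjusted p = 0.396), and neither was one farther into the gene (-0.40, limma adjusted p = 0.0849).

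All 6759 bases between the main 2 regions (chr12:40402268-40409026) are soft-masked as repeats in the reference, within an unbroken masked stretch of 7118 bases. The reference is of the B6 strain; the sequence of D2 here was not analysed. The 2 edges of that stretch are printed below 5′ to 3′ on the plus strand from GRCm38.p6, since the TRIM28 signal of B6 lies on both sides of them. Capitals mark bases that are not masked and lower case the masked repeat.
Zfp277 first edge, chr12:40401968-40402097: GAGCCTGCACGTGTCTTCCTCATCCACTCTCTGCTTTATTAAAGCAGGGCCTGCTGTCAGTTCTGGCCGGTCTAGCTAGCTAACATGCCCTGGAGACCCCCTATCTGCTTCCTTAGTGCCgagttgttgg
Zfp277 second edge, chr12:40409196-40409280: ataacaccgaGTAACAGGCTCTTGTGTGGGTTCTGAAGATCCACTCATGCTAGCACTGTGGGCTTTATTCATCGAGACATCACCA

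**Figure D2:**
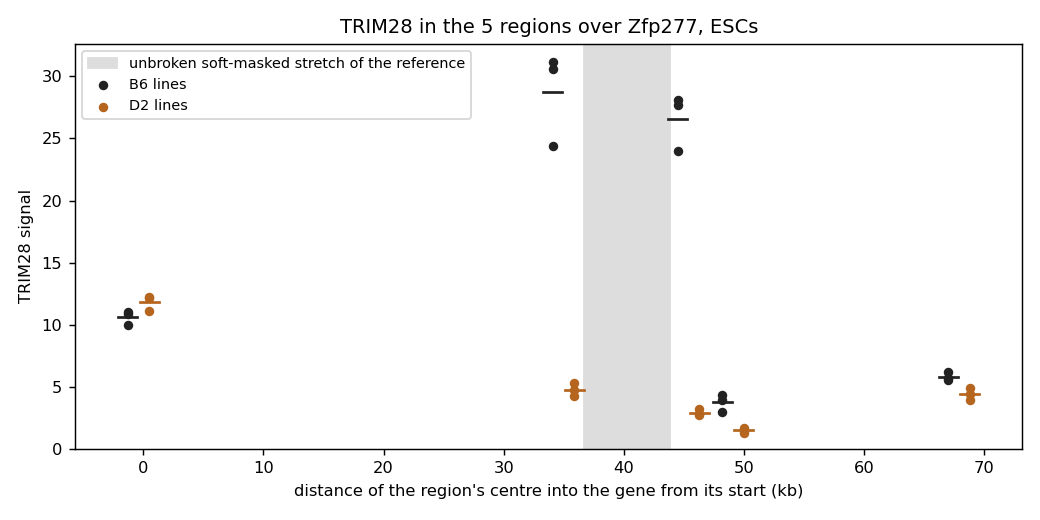
TRIM28 signal of the 5 regions over Zfp277 in each B6 and D2 ESC line, with bars at the mean, against the distance of each region from the gene's start in kb; grey marks the masked stretch. The B6 lines stand above the D2 lines at both regions that flank the stretch, which differ by -2.56 and -3.14, and not at the region over the start.

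The strain difference in open chromatin at the start of Zfp277 was small beside that of its RNA. In ESCs its promoter ATAC signal was 34.6, 35.6 and 32.4 in B6 and 41.7, 39.7 and 36.1 in D2, slightly higher in D2 (0.19, limma adjusted p = 0.0209). In EpiLCs it was slightly lower (-0.19, limma adjusted p = 0.00119). Both values were near the median difference of all promoter regions, 0.10 in ESCs and -0.17 in EpiLCs.

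Zfp57 is the KRAB zinc finger protein that holds DNA methylation at imprinting control regions. The gene (chr17:37001163-37010635, plus strand) encodes 421 residues with a KRAB box and 3 matched fingers. In ESCs its signal was 149, 201 and 176 in B6 and 183, 162 and 150 in D2. The lines overlapped and the difference did not pass the test (-0.08, limma adjusted p = 0.623). In EpiLCs the B6 lines had 41.6, 38.9 and 39.2 and the D2 lines 72.7, 56.8 and 69.2, with every D2 line above every B6 line (0.71, SE 0.10, limma adjusted p = 6.16e-05). The strain difference itself differed between the states by 0.79 (SE 0.16, limma adjusted p = 0.00137). The F1 ESC lines had 142, 135 and 118, each below all of the parental ESC values given above, which were normalized separately. The contrast of the F1 with the parental mean did not pass (-0.37, limma adjusted p = 0.0772).

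Zfp57 varied continuously over the BXD lines, from 27.1 to 147 in EpiLCs (median 51.2) and from 106 to 236 in ESCs. In EpiLCs 16 of 33 lines lay on the D2 side. The sum of the 8 pluripotency markers, Pou5f1 and Sox2 included, moved with it. Over the 33 BXD EpiLC lines, the Zfp57 signal correlated with that sum, which ran from 553 to 2313 (Pearson r = 0.77, permutation p = 1e-05, adjusted 2e-05). That p is the smallest that 100000 permutations can give. Spearman rho was 0.70 (permutation p = 1e-05). Without the 2 lines farthest from the median marker sum, r was 0.73. The same 2 relations were computed for Zfp277, which gave r = 0.03 (permutation p = 0.86) and rho = 0.21 (permutation p = 0.239), with r = 0.15 without the farthest lines. Zfp277 falls into 2 separate sets of lines, so these values cannot show a relation within a set. That relation was not tested. Whether the lines' place in the change of state underlies the Zfp57 difference was not tested. The genes that placed the BXD EpiLC lines most like Zfp57, among 7086, were Vwa3b (32 of 33 lines, strain difference 1.43), Platr7 (30 lines, 1.04) and Crxos (30 lines, 0.95).

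The promoter region of Zfp57 in ESCs, chr17:37001549-37003789, begins inside the gene, past its first annotated base. Its ATAC signal was 22.01, 21.7 and 20.1 in B6 and 29.7, 30.5 and 26.9 in D2. This was higher in each D2 line (0.45, limma adjusted p = 3e-05), although the ESC RNA did not pass. In EpiLCs, where the RNA was higher in D2, the promoter difference was -0.12 (limma adjusted p = 0.0824). The median difference of all promoter regions was 0.10 in ESCs and -0.17 in EpiLCs. TRIM28 over the start was higher by 0.37 (limma adjusted p = 0.0376), and a second region over the end of the gene did not pass (0.10, limma adjusted p = 0.569).

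The bases just before the annotated starts of Zfp277, Zfp69 and Zfp658, and before an exon inside Zfp57, are shown because the results turn on these genes. For Zfp57 the exon is the first to begin beyond the start of its ESC open region, chr17:37001549-37003789. Whether that exon holds a start site was not checked. They are read from GRCm38.p6 on the gene's strand and cut back where an exon begins. Capitals mark the GC box GGGCGG, searched on both strands (CCGCCC on the other), the motif of SP1-type factors.
Zfp277, chr12:40445903-40445951, minus: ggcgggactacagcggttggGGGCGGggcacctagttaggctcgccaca
Zfp57, chr17:37002302-37002451, plus: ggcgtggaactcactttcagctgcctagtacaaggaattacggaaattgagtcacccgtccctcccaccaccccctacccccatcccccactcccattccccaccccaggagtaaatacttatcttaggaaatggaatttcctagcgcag
Zfp69, chr4:120951700-120951949, minus: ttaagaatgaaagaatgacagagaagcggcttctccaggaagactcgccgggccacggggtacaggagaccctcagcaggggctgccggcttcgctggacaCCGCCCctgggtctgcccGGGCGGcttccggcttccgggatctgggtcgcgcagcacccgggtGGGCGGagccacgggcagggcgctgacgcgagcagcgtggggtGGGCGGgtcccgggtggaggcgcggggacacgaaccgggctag
Zfp658, chr7:43562006-43562255, plus: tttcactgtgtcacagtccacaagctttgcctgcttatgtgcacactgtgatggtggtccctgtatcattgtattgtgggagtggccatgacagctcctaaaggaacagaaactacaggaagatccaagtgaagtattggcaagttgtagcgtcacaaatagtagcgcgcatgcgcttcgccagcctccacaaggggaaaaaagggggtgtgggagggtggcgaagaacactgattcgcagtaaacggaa
The Zfp69 stretch holds 4 boxes and 26 CG pairs in 250 bases, the Zfp658 stretch 0 boxes and 8 CG pairs in the same length. Zfp277 has 1 box in 49 bases and Zfp57 has 0 in 150. Of 32851 RefSeq promoters of 250 bases, 32.7% hold a box, and of 231 promoters of the 186 members that matched by symbol, 45% do.

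In ESCs, 26 of 213 members were higher in D2 (12.2%) and 43 lower (20.2%), where 17.3% of all 12694 tested genes were higher and 20.3% lower, 37.6% in all. The members' share was below the background on the higher side and near it on the lower side, a description with no test. The median difference was -0.11 for members and -0.04 for all genes. All 69 called members had B6 and D2 lines that did not overlap, as had 98.7% of all called genes. Called or not, the lines did not overlap for 54.5% of members, 42 with D2 higher and 74 with D2 lower, and for 51.4% of all genes, 23.5% and 27.9%. Among members 1 was higher by 1 or more on the log2 scale and 8 lower by 1 or more, where 3.68% and 3.66% of all genes were. The counts rest on few lines: they were 13 and 25 without B41, 12 and 28 without B51, 16 and 23 without B44, and 14 and 32 without D29.

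**Figure D3:**
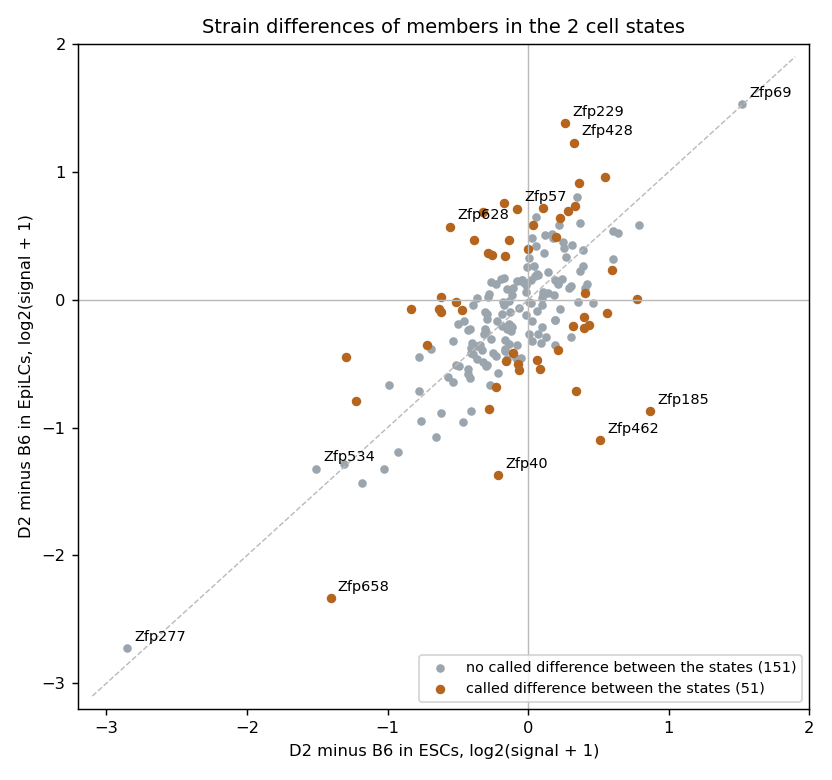
Difference D2 minus B6 (log2) of each member in ESCs against that in EpiLCs, with a dashed line of equality; brown points have a called difference between the states (51 of 202). Zfp277 lies lowest on both axes near that line, and Zfp462 and Zfp185 lie above 0 in ESCs and below 0 in EpiLCs.

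Lower in D2 ESCs after Zfp277 were Zfp534 (-1.51), Zfp658 (-1.41), Zfp213 (-1.31), Zfp248 (-1.30) and Zfp266 (-1.23). Zfp658, a KRAB gene with 21 matched fingers (chr7:43562256-43575461), had 2.49, 3.10 and 2.74 in B6 and 0.749, 0.387 and 0.184 in D2. Zfp266, which has been described as a barrier to reprogramming, had 88.6, 93.1 and 81.8 in B6 and 38.3, 39.3 and 33.4 in D2 (limma adjusted p = 1.5e-05). Zfp213 had 7.79, 9.44 and 8.35 in B6 and 3.41, 3.15 and 2.07 in D2. None of these overlapped. Zfp534 had 55.4, 67.9 and 59.4 in B6 and 21.4, 32.1 and 12.7 in D2, but its protein is 91.5% identical to that of Zfp987, so its counting is uncertain. Zfp85 (against Zfp273), Zfp97, Zfp429, Zfp433, Zfp456 and Zfp600 likewise have a near-identical protein elsewhere and are uncertain.

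Higher in D2 ESCs was Zfp69 by the widest margin (1.52), then Zfp185 (0.87), Zfp28 (0.79), Zfp362 (0.77), Zfp454 (0.64) and Zfp560 (0.60). Zfp69, a KRAB gene with 9 matched fingers that has been linked to diabetes susceptibility in mice (chr4:120930137-120951699), had 1.79, 1.76 and 1.84 in B6 and 8.24, 7.20 and 5.85 in D2. Zfp28 had 4.397, 4.26 and 4.50 in B6 and 8.61, 9.17 and 7.19 in D2. Zfp362 had 5.83, 5.37 and 5.72 and then 9.61, 11.5 and 9.996, and its EpiLC difference was 0.00 (limma adjusted p = 0.988). In each of these the D2 lines lay above the B6 lines. The Zfp560 call was lost with a pseudocount of 5 (limma adjusted p = 0.0583) and without B41, B51, B44, D55 or D29 (limma adjusted p from 0.0664 to 0.151).

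In EpiLCs more members differed, 43 of 215 higher and 76 lower (35.3%), where 28.5% of all 12692 genes were higher and 29% lower, 57.5% in all. The members' share was below the background on the higher side and above it on the lower side, again with no test. The median was -0.10 against 0.00 for all genes. By 1 or more, 3 members were higher and 10 lower, where 5.51% and 3.85% of all genes were. Of the called members, 42 higher and 73 lower had lines that did not overlap, as had 97.2% of all called genes. Called or not, they did not overlap for 64.7% of members, 56 with D2 higher and 83 with D2 lower, and for 63.7% of all genes, 31.6% and 32.1%.

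**Figure D4:**
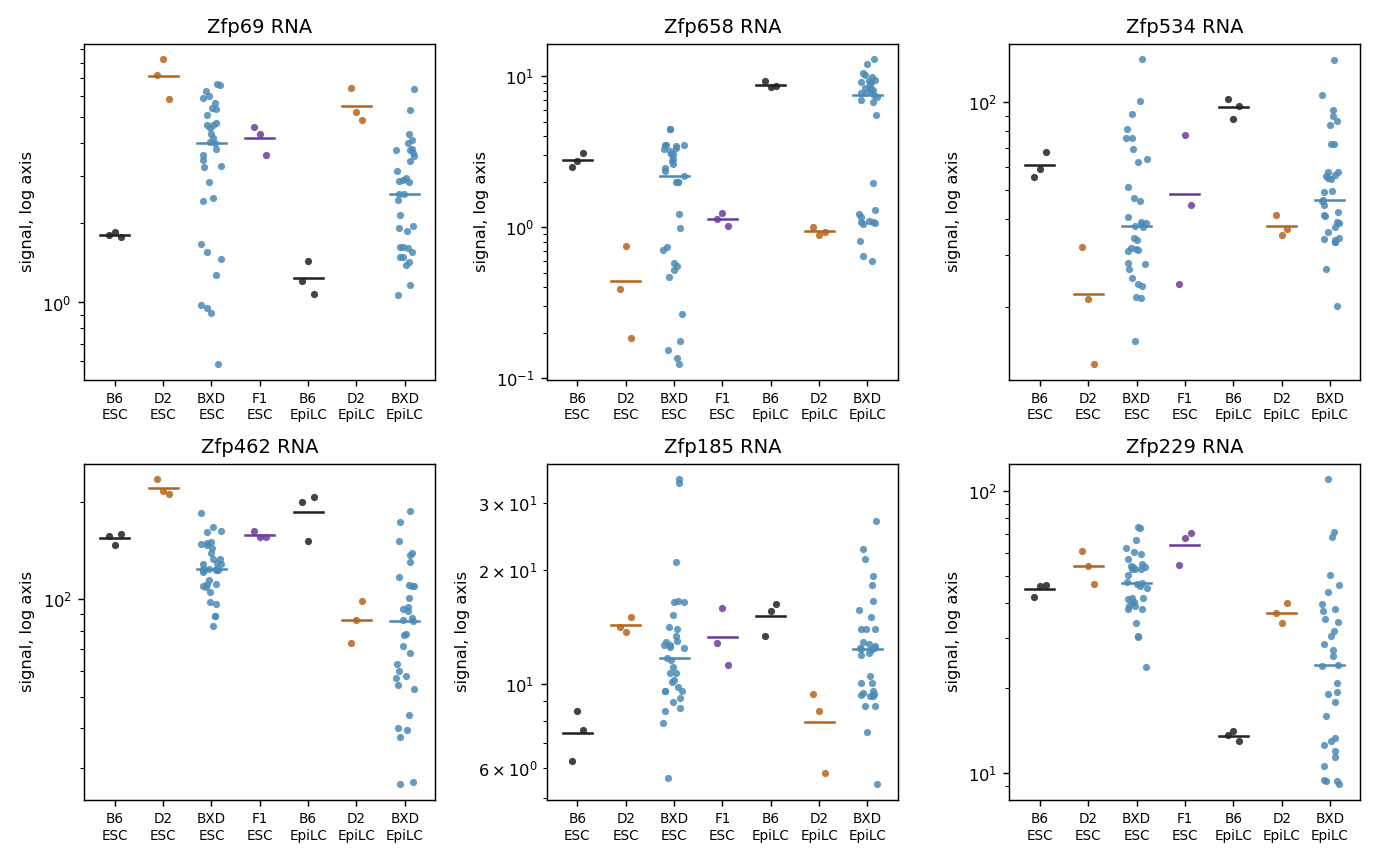
RNA signal (log axis) of 6 members in each B6, D2, F1 and BXD line in ESCs and EpiLCs, with bars at the mean (BXD: median). Zfp69, Zfp658 and Zfp534 keep the direction of the strain difference in both states, and Zfp462 and Zfp185 turn.

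Zfp658 had the largest fall after Zfp277 in EpiLCs, with 8.58, 8.47 and 9.37 in B6 and 1.00, 0.890 and 0.935 in D2 (-2.34, limma adjusted p = 1.72e-08). Zfp433 (-1.43), Zfp40 (-1.37), Zfp534 (-1.32) and Zfp273 (-1.32) followed. Zfp40 had 8.17, 8.99 and 8.89 in B6 and 3.42, 2.74 and 2.16 in D2. On the other side, Zfp69 was again highest in difference (1.53), with 1.08, 1.43 and 1.21 in B6 and 6.43, 5.20 and 4.85 in D2. Zfp229 (1.38) had 12.9, 14.03 and 13.6 in B6 and 36.7, 34.0 and 39.9 in D2. Zfp428 (1.23) had 28.2, 28.7 and 31.2 and then 73.3, 67.7 and 69.5. None of these lines overlapped between strains. Zfp296 (0.96), Zfp3 (0.92) and Zfp358 (0.80) completed the higher set.

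Of the 202 members in both tables, 37 were called in the same direction in both states, 9 higher and 28 lower (18.3%, where 19% of all genes in both tables were). Another 25 were called in ESCs alone, 73 in EpiLCs alone and 63 in neither. Only 4 were called in opposite directions, where 5.27% of all genes were. Zfp462, a factor of pluripotency and heterochromatin with 34 matched fingers (chr4:54945048-55083563), had 157, 160 and 148 in B6 ESCs and 217, 235 and 212 in D2 ESCs (0.51, limma adjusted p = 0.0009). In EpiLCs it had 207, 152 and 201 in B6 and 73.3, 86.2 and 99.1 in D2 (-1.10, limma adjusted p = 6.72e-05). Zfp185, which encodes a LIM-domain protein of the actin cytoskeleton despite its name, had 6.25, 7.54 and 8.49 in B6 ESCs and 13.7, 14.1 and 15.1 in D2 ESCs. In EpiLCs it had 16.3, 15.6 and 13.4 in B6 and 9.43, 8.51 and 5.82 in D2. B6 and D2 lines of these genes did not overlap in either state, and levels come from tables normalized separately for each state.

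The other 2 with opposite calls moved less. Zfp385a differed by -0.28 in ESCs and 0.36 in EpiLCs, and Zfp664 by 0.22 and -0.40. Their ESC calls did not hold in every fit. In limma without trend and robust the adjusted p was 0.0532 for Zfp385a and 0.0711 for Zfp664, and for Zfp385a it was 0.0629 with median-ratio and 0.0536 with quantile scaling. As for single lines, Zfp385a lost it without B41, B51, B44 or D55 (limma adjusted p up to 0.155) and Zfp664 without B41, B51, B44, D29 or DAC203 (limma adjusted p from 0.0501 to 0.136). The EpiLC call of Zfp385a was also lost without D55 (limma adjusted p = 0.0518).

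The interaction of strain and state was called for 51 of 202 members, 29 higher and 22 lower (25.2%), where 36.0% of all genes were called, 20% higher and 16% lower. The same parental lines were measured in both states, and this fit held no term for line. With cell line as a block, 2458 of all 11745 genes were called higher and 1962 lower, against 2348 and 1881 without it. With median-ratio scaling the members' split was 24 and 27, and with quantile scaling 21 and 28, so which side is larger depends on the scaling. Zfp185 (-1.74) and Zfp462 (-1.61) led, then Zfp40 (-1.16), Zfp628 (1.13) and Zfp229 (1.12). Zfp628 had 8.74, 10.9 and 8.56 in B6 ESCs and 7.70, 6.93 and 4.05 in D2 ESCs, which did not pass (-0.56, limma adjusted p = 0.0595). In EpiLCs it had 11.8, 10.8 and 14.6 and then 19.2, 18.3 and 18.9 (0.57). Higher calls fell to 18 without B41 in EpiLCs, B44 in ESCs or DAC203 in EpiLCs, and lower calls rose to 35 without DAC203 in ESCs.

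In the F1, 1 of 214 members was called against the parental mean, Zfp277 as above, and 0 were lower, where 1.97% of all 12700 genes were higher and 1.32% lower, 3.29% in all. At an unadjusted p under 0.05, 14 members were higher and 18 lower in limma. The calls were 5 and 11 without DAC203, and without D55 or F116 2 were higher, and without B41 2 were lower. Of the 9 members that differed by 1 or more between parental ESCs, 5 had every F1 line between the parental lines, namely Zfp277, Zfp213, Zfp69, Zfp658 and Zfp266. Among all 931 genes with such a parental difference 59.7% had. Zfp69 had 4.56, 4.30 and 3.60 and Zfp658 1.13, 1.25 and 1.02 in the F1 lines.

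For most called members whose parental lines did not overlap, BXD lines fell on both sides of the parental midpoint. Each BXD line has 1 library per state, and no genotype was used. In ESCs 61 of 69 such members had 3 to 30 of the 33 lines on the D2 side (88.4%, against 87.3% of 4710 genes), and in EpiLCs 105 of 115 (91.3%, against 87.6% of 7087). Over the 37 members called the same way in both states, a median of 21 lines kept their side, the same as over 2147 genes. Zfp277 kept 33 and Zfp658 32; 5.41% of members and 8.52% of all genes kept at least 30. Next were Zfp433 (28) and Zfp266, Zfp422 and Zfp518a (24 each).

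Zfp658 also fell into separate sets, 13 ESC lines with 0.124 to 1.22 and 20 with 2.00 to 4.48, and 12 EpiLC lines with 0.601 to 1.95 and 21 with 5.51 to 12.98. Zfp462 did not follow its parents in ESCs, where BXD lines had 82.5 to 186, 26 of them below every parental line and 1 on the D2 side. In EpiLCs 27 of 33 BXD lines were on the D2 side of Zfp462.

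Members with described roles went both ways. These lists were chosen with earlier results known and are not independent evidence. Their counts stand beside 17.3% higher and 20.3% lower of all genes in ESCs and 28.5% and 29% in EpiLCs, and lists this short allow no reading against those shares. Of 5 members listed as repressors of imprinted genes and retroelements, 1 was higher and 1 lower in ESCs and 2 higher and 2 lower in EpiLCs. Their roles were not checked here, and that of Zfp91, 1 of the 2 lower in EpiLCs (-0.27), is uncertain. Zfp568, a repressor of a placental Igf2 promoter, was higher in ESCs (0.59, limma adjusted p = 0.000665), and Zfp445, which guards imprints beside Zfp57, was lower in EpiLCs (-0.35, limma adjusted p = 0.0027). In ESCs the Zfp445 call was lost without B41, B51 or B44 (limma adjusted p from 0.0546 to 0.0854). In EpiLCs that of Zfp568 was lost without B44 or any D2 line (0.0567 to 0.139) and that of Zfp91 without B41 or D55 (0.051 to 0.0624). Of 8 factors of pluripotency and its exit, 3 were higher and 0 lower in ESCs, and 2 higher and 4 lower in EpiLCs. Zfp296, a reprogramming factor, was higher in both (0.55 and 0.96), as was Zfp219 (0.60 and 0.54), while Zfp217 was lower in EpiLCs (-0.68). The lower call of Zfp207 in EpiLCs was lost without B41, D55 or DAC203 (limma adjusted p from 0.0514 to 0.124). Of 8 chromatin partners, 3 were higher and 2 lower in ESCs and 1 and 4 in EpiLCs, with Zfp518a lower in both (-0.62 and -0.88). The 1 higher in EpiLCs was Zfp568. In ESCs the call of Zfp518b was lost without B41, B51, B44, D55 or D29 (limma adjusted p from 0.0697 to 0.158) and that of Zfp644 without B41 or B44 (0.0541 and 0.09).

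Of 7 members that act on RNA or translation, 2 were higher and 0 lower in ESCs and 2 higher and 1 lower in EpiLCs. Zfp36, or tristetraprolin, which speeds the decay of AU-rich mRNA, was higher in EpiLCs (0.69), and so was Zfp598, the ligase that marks collided ribosomes (0.43). The ESC call of Zfp598 was lost without B41, B51, B44 or D29 (limma adjusted p from 0.0508 to 0.0819), and the EpiLC call of Zfp326, the lower one, without B51, B41 or any D2 line (0.0694 to 0.156). Of the nervous system list, 6 of 8 were tested in ESCs (1 higher, 1 lower) and 5 in EpiLCs (1 higher, 2 lower). Zfp335, needed for neural progenitors, was higher in EpiLCs (0.70) and Zfp516 lower (-0.85). Zfp335 was also the higher one in ESCs, a call lost without B41, B51, B44, D29 or DAC203 (limma adjusted p from 0.0759 to 0.189), and the EpiLC call of Zfp608 was lost without B51, B41, D55 or DAC203 (0.0598 to 0.0856). Of 21 tested genes of the KRAB silencing machinery, 2 were higher and 8 lower in ESCs and 3 higher and 6 lower in EpiLCs. Cbx3 (-0.55 and -0.63) and Chd3 (-0.64 and -0.94), a heterochromatin protein and a nucleosome remodeller, were lower in both. Trim28 itself averaged 1378 in B6 and 1708 in D2 ESCs (0.31, limma adjusted p = 0.0189) and 1105 and 1314 in EpiLCs (0.25, limma adjusted p = 0.0231). Its ESC call was lost without B41, B51 or D29 (limma adjusted p from 0.0606 to 0.0781) and its EpiLC call without B41, D29 or DAC203 (0.0593 to 0.0969). Atf7ip, a partner of SETDB1, was higher by 0.26 and 0.38, with the ESC call lost without B51, B44, D29 or DAC203 (limma adjusted p from 0.0673 to 0.145). Of the lower ESC calls, those of Hdac1 and Morc3 were lost without B41, B51, B44, D29 or DAC203 (limma adjusted p up to 0.153). That of Sumo2 was lost without B44 or D29 (limma adjusted p up to 0.057). In EpiLCs the higher call of Daxx was lost without B41, D55 or DAC203 (limma adjusted p from 0.0629 to 0.1255). The lower call of Fam208a was lost without B51, B41, D55 or DAC203 (0.0522 to 0.118). The part of these machinery genes' levels in the TRIM28 signal below was not tested.

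Members were also counted by match to the KRAB box pattern, with no test between the sets. The set without a match may hold members whose box the pattern misses. With a match 9 of 73 were higher and 14 lower in ESCs, and without it 17 and 29 of 140. In EpiLCs the counts were 15 and 29 of 75 with it and 28 and 47 of 140 without, or 38.7% and 33.6% lower where 29% of all genes were. The EpiLC medians were -0.16 with it and -0.07 without. By place, chromosome 13 was singled out after its values were seen: 0 of 15 members were higher and 7 lower in ESCs (46.7%, against 25.3% of 490 genes there), and 0 of 13 higher and 10 lower in EpiLCs (76.9%, against 35.1% of 459). Members next to each other and both called had the same direction in 14 of 19 pairs in ESCs (73.7%, against 58.6% for all genes) and in 22 of 31 in EpiLCs (70.97%, against 62.4%).

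Promoter chromatin of members leaned the way all promoters did in each state. In ESCs 39.1% of the 297 promoter regions of 223 members were more open in D2 and 18 less (6.06%), where 31.2% and 14.4% of all 17865 promoter regions were, 45.6% in all. In EpiLCs 23 of 289 were more open (7.96%) and 157 less (54.3%), where 11.6% and 55.6% of 17126 were, 67.3% in all. Zfp658 went with its RNA, with 18.8, 20.5 and 17.6 in B6 and 12.6, 12.2 and 10.9 in D2 ESCs (-0.66). In EpiLCs it had 31.3, 33.5 and 32.3 in B6 and 16.4, 17.5 and 15.6 in D2 (-0.97, limma adjusted p = 2.73e-20). The lines did not overlap in either state.

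The promoter regions with the largest differences belonged to several members. A promoter region is one near any annotated start, and some of these lie inside the gene, away from its first start. In ESCs Zfp462 at chr4:55010719-55012236, inside the gene, had 2.94, 2.41 and 2.97 in B6 and 8.14, 7.94 and 8.96 in D2 (1.56), then came Zfp280d (1.18) and Zfp493 (1.12). The Zfp462 region over the gene's first start, chr4:54944661-54946589, did not pass (0.17, limma adjusted p = 0.0597). The region next to it did not pass either (0.07, limma adjusted p = 0.431). In EpiLCs Zfp69 at chr4:120935385-120936007, also inside the gene, had 0.652, 0.725 and 0.362 in B6 and 2.36, 3.15 and 2.52 in D2 (2.06), then Zfp229 (1.38) and Zfp600 (1.35). Over the first start of Zfp69, the ESC region differed by 0.27 (limma adjusted p = 0.00913). Lower in ESCs were Zfp64 (-1.01), Zfp658 and Zfp629 (-0.65), and in EpiLCs Zfp362 (-1.33), Zfp658 and Zfp382 (-0.92). The ESC and EpiLC differences were not compared by a test.

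TRIM28 regions over the bodies of 222 members numbered 562, of which 112 were higher in D2 (19.9%) and 65 lower (11.6%), where 16.1% and 11% of 34146 regions over gene bodies were, 27.2% in all. Regions that were not called lay over a start site in 51.7% of cases and had a median of 16.3% masked bases. The 34 regions lower by 1 or more covered a start in 11.8% and had a median of 42.2% masked, and the 25 higher by 1 or more covered one in 3 cases and had 28.1%. These shares are a description of the regions, with no test.

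**Figure D5:**
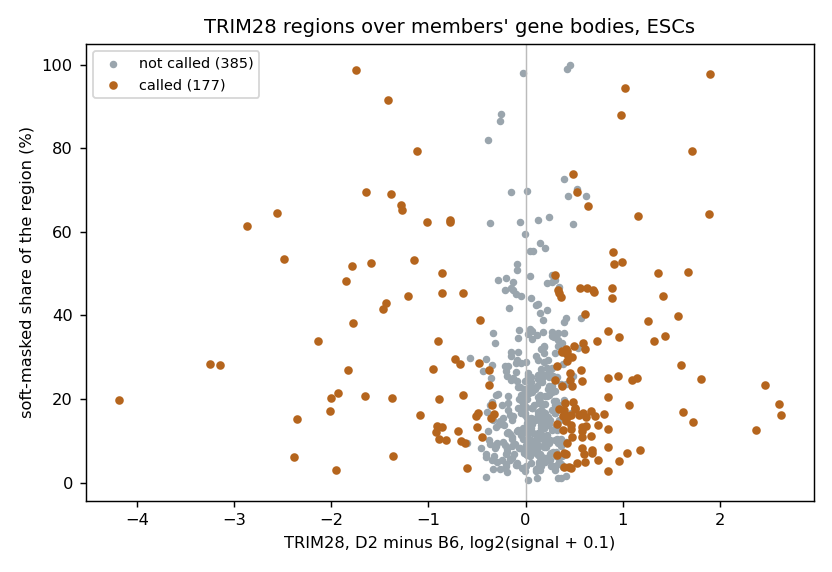
Soft-masked share of each TRIM28 region over a member against its difference D2 minus B6 (log2). Regions that fell by 1 or more have a median of 42.2% masked bases against 16.3% for regions not called.

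The largest TRIM28 falls were in Zfp697 (-4.19), with 4.03, 3.97 and 3.43 in B6 and 0.128, 0.0941 and 0.118 in D2, in Zfp248 (-3.25) and in Zfp277. The largest rises were in Zfp382 (2.64), Zfp93 (2.61) and a second region of Zfp697 (2.46). The annotated body of Zfp697 is long (chr3:98382461-98753812), and any region overlapping it was credited to that gene. Whether these regions relate to Zfp697 itself was not tested. Zfp69 had an intronic region at chr4:120943094-120944875, 53.5% masked, with 9.57 in B6 and 1.76 in D2 on average (-2.49, limma adjusted p = 1.17e-10), while its RNA was higher in D2. In Zfp658, whose RNA was lower in D2, the region at chr7:43571637-43575027 had 5.83, 4.99 and 5.42 in B6 and 17.6, 17.7 and 19.2 in D2 (1.73). In Zfp462, chr4:54991025-55014301 averaged 318 in B6 and 123.6 in D2 (-1.37, limma adjusted p = 5.98e-14).

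Across members the direction of TRIM28 and RNA did not line up in a fixed way. Of the 21 members with a region lower by 1 or more, 3 had higher and 7 lower RNA in D2 ESCs, with a median RNA difference of 0.03, where 17.3% of all genes were higher and 20.3% lower. Of the 22 measured members with a region higher by 1 or more, 2 had higher and 2 lower RNA, with a median of 0.06. The sets share 5 members, Zfp398, Zfp407, Zfp600, Zfp697 and Zfp82, each with a region of either kind. Zfp277 and Zfp248 had less TRIM28 and less RNA in D2, and Zfp69 had less TRIM28 and more RNA.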

How the data were processed

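Gene RNA values and region values are a normalized signal that the authors deposited as tables over all lines. RNA was scaled to library totals near a like size, and region tables were divided by a factor per library. Each ATAC and TRIM28 library had a smallest step of which 100% of its deposited values were whole multiples (tolerance 0.01), and whole read counts behind the authors' signal were recovered from it and tested with edgeR 4.0.16 as an alternative. Per the submitters' processing notes, mm10, HISAT2 2.0.5, MACS 1.4.2 and Bowtie 1.0.0 were used, in roles not stated. The counting tool, the use of strand and the annotation were not given in the sources used here. How strain variants affect mapping to mm10 was not tested. In the tables used, 0 columns of values had no sample.

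Parental strains were compared with limma 3.58.1 (trend and robust, R 4.3.3) on log2(signal + 1) for RNA with a mean of at least 0.5, and log2(signal + 0.1) for regions, fitted over all features and called at a Benjamini-Hochberg adjusted p under 0.05. Differences are D2 minus B6 and understate changes of low values. Promoter regions overlapped 1 kb either side of a start site (GENCODE M21, bedtools 2.31.1). Since replicates are lines, a p-value reflects how far lines of a strain vary. On simulated data the ESC RNA fit recovered 82% of genes changed by 1 on the log2 scale and 28% of those changed by 0.5. The EpiLC RNA fit recovered 89% and 43%. The TRIM28 fit recovered 54% and 4%, so TRIM28 regions that were not called may still differ. The members and lists were chosen with earlier results of these data known. The text names Zfp57 and Zfp277, the 6 called members a direction with the largest RNA difference per state, the 5 largest interactions, the 3 regions a direction with the largest difference, and members of role lists; other genes were chosen after their values were seen. Zfp932, on a role list but no member, was left out of the counts. The KRAB pattern first written found 1 member and was corrected after the data were seen, when the Zfp57 likeness and marker relation were also added.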

Additional observations from a re-analysis of the deposited data

Results flagged for a closer look

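Of the 51 members called in the test of the interaction of strain and state, 8 are given here: the 5 with the largest values, Zfp57, and the other members called in opposite directions. The EpiLC difference minus the ESC difference was -1.74 for Zfp185, -1.61 for Zfp462, -1.16 for Zfp40, 1.13 for Zfp628, 1.12 for Zfp229, 0.79 for Zfp57, 0.65 for Zfp385a and -0.61 for Zfp664. Zfp185, Zfp462, Zfp385a and Zfp664 were called in opposite directions in the 2 states, with limma adjusted p for the interaction of 1.75e-05, 4.05e-06, 0.00363 and 0.000557. The sum of the 8 pluripotency markers, 816 to 859 in B6 and 1013 to 1140 in D2 EpiLCs, differed in the same state, and its part in these values was not tested.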

How the results depend on the processing

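Of 97 results for named genes and regions that were called, 20 lost the call under at least 1 alternative and 0 reversed. Of 196 pairs of a count and an alternative, 177 stayed within 1.5 times the reported count. Leaving out a line gave 12 to 32 members higher and 23 to 52 lower in ESCs, 36 to 44 and 64 to 79 in EpiLCs, 18 to 29 and 17 to 35 for the interaction, and 1 to 5 and 0 to 11 for the F1. For regions it gave 12 to 18 lower in ESC promoters, 20 to 23 and 133 to 169 in EpiLC promoters, and 91 to 104 and 62 to 67 for TRIM28. With median-ratio scaling 1 member was lower in the F1. With the replicate number as a block, ESC members fell to 14 higher and 26 lower, and EpiLC members were 41 and 72. Same-numbered samples deviated together with correlations of -0.28, -0.07 and -0.39 in ESCs and -0.24, -0.04 and 0.01 in EpiLCs, so the numbers do not pair the samples. The depth of the RNA libraries is unknown, and TRIM28 regions, apart from those of D55, rest on fewer reads than ATAC regions.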
